A study of Homo sapiens with 9 samples.

Results

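Nucleotide excision repair (NER) cuts bulky, helix-distorting lesions out of DNA as a short single-stranded piece and refills the gap. Core NER genes were followed here through glutamine (Gln) deprivation of HepG2 cells, an established human liver tumor line. The 10 genes are *DDB1*, *DDB2*, *ERCC8*, *ERCC6*, *ERCC3*, *ERCC2*, *XPA*, *ERCC1*, *ERCC4* and *ERCC5*, chosen by name as core factors that DNA replication does not also use, and each has 1 row among the 22587 genes of the deposited expression table. The 9 RNA-seq libraries form 3 groups of 3, namely a control group (Gln added), cells deprived of Gln for 12 h and cells deprived for 24 h. Every group was grown in high-glucose DMEM with 10% fetal bovine serum, and the labels name no knockdown or drug in any group. The labels list GlutaMAX, a stabilised Gln dipeptide, as the treatment of the control cultures, whereas their treatment protocol places it in the Gln-free medium, so which cultures received it cannot be told from the labels. Nothing in the labels says that replicates were separate cultures on separate days, and p-values therefore measure only the spread between these libraries.

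In cells, NER starts along a global or a transcription-coupled route. In global genome repair, the DDB1-DDB2 complex finds ultraviolet photoproducts in chromatin, while in transcription-coupled repair ERCC6 (CSB) and ERCC8 (CSA) act at a stalled RNA polymerase. Both routes hand over to TFIIH, whose helicase subunits ERCC3 (XPB) and ERCC2 (XPD) open the helix, then to XPA, which helps to position the complex, and to the nucleases ERCC1-ERCC4 (XPF), cutting 5′ of the lesion, and ERCC5 (XPG), cutting 3′ of it. DDB1 and ERCC8 are also parts of CUL4-RBX1 ubiquitin ligases, and *DDB2* is a transcriptional target of p53 in human cells.

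Values are FPKM, fragments per kilobase of gene length scaled to a total of fragments for each library. A level compared between genes therefore also depends on the length assigned to each. The totals solved from the FPKM steps were 29621270 to 36261546 fragments, and 17998 to 18594 genes were above 0. Fragments recovered over all genes made up 99.986% to 99.987% of each total, so the totals stand for fragments counted in genes. All 8 hepatocyte and HepG2 markers were expressed, from *TTR* at 14.7 to 19.6 FPKM up to *ALB* at 3230 to 3908 FPKM. Their summed level was 6722 to 6819 FPKM in controls, 5750 to 5835 at 12 h and 5537 to 5911 at 24 h. Of the other cell types, 3 endothelial markers summed to at most 0.366 FPKM and 3 fibroblast markers to at most 0.78, nearly all of it *PDGFRB*, while *COL3A1* stayed at or below 0.00548 FPKM. The fibroblast sum was 0.113 to 0.181 in controls and 0.608 to 0.78 at 24 h. Among leukocyte markers only *CD68*, a lysosomal gene not confined to macrophages, was measured, at 35.9 to 36.3 FPKM in controls, 28.6 to 31.6 at 12 h and 21.2 to 25.7 at 24 h. The part of these marker differences in the results below was not tested. In bulk RNA, fewer cells of a kind and less RNA per cell cannot be told apart.

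The 10 genes spanned a wide range of expression in control cells. The damage-recognition pair stood at the top, with *DDB1* at 83.5 ± 0.487 FPKM (SD, n = 3) and *DDB2* at 30.6 ± 1.19. The helicase genes followed, *ERCC3* at 21.8 ± 0.332 FPKM and *ERCC2* at 10.2 ± 0.949. Next came *ERCC1* at 5.38 ± 0.0391 FPKM, *XPA* at 3.49 ± 0.46, *ERCC4* at 2.99 ± 0.194 and *ERCC8* at 2.26 ± 0.22. *ERCC6* at 0.528 ± 0.027 FPKM and *ERCC5* at 0.281 ± 0.037 were the lowest. In this order only the neighbours *XPA* and *ERCC4* had control libraries that overlapped. After 12 h of deprivation *ERCC3* stood above *DDB2*, and at 24 h *ERCC4* also stood above *XPA*.

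These levels depend on the length each gene was divided by, although the order of the 10 genes in controls was the same per canonical transcript length. For *ERCC6*, the length solved from the FPKM steps was 30621 bases, against 9001 bases of its canonical transcript, and with the latter its control level would be 1.80 FPKM. *ERCC6* was in fact covered by 530 to 692 fragments per library, more than the 295 to 405 of *XPA*. For *XPA* the corresponding lengths were 2813 and 1400 bases, giving 7.02 FPKM per canonical length. *ERCC5* was sparse on either count, with 19 to 44 fragments per library.

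Differences between groups were tested with limma on log2(FPKM + 0.1) across the 11880 genes whose mean over all libraries reached 0.5 FPKM, and a gene was called at a Benjamini-Hochberg adjusted p under 0.05. Of the 10 NER genes, 9 passed this filter and *ERCC5* did not. The 12 h and 24 h comparisons share the 3 control libraries. For single genes, an exact permutation test of 3 against 3 libraries cannot give a two-sided p below 0.1, and 0.1 was reached wherever the groups did not overlap.

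At 12 h of Gln deprivation, 5 of the 9 tested NER genes were called, against 60.2% of all genes tested. *DDB2*, *ERCC8*, *ERCC2* and *DDB1* fell and *ERCC4* rose, whereas *ERCC3*, *XPA*, *ERCC1* and *ERCC6* did not pass. At 24 h, 5 of 9 were again called, against 64.7% of all genes: *DDB2*, *ERCC8* and *DDB1* were lower and *ERCC1* and *ERCC4* higher than in controls. Between 12 h and 24 h, 1 of 9 was called, *ERCC1*, against 20.1% of all genes. The shares called among the NER genes were thus near those of the transcriptome. Their median log2 difference was −0.01 at 12 h and −0.02 at 24 h, beside −0.02 and 0.01 over all genes tested.

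**Figure D1:**
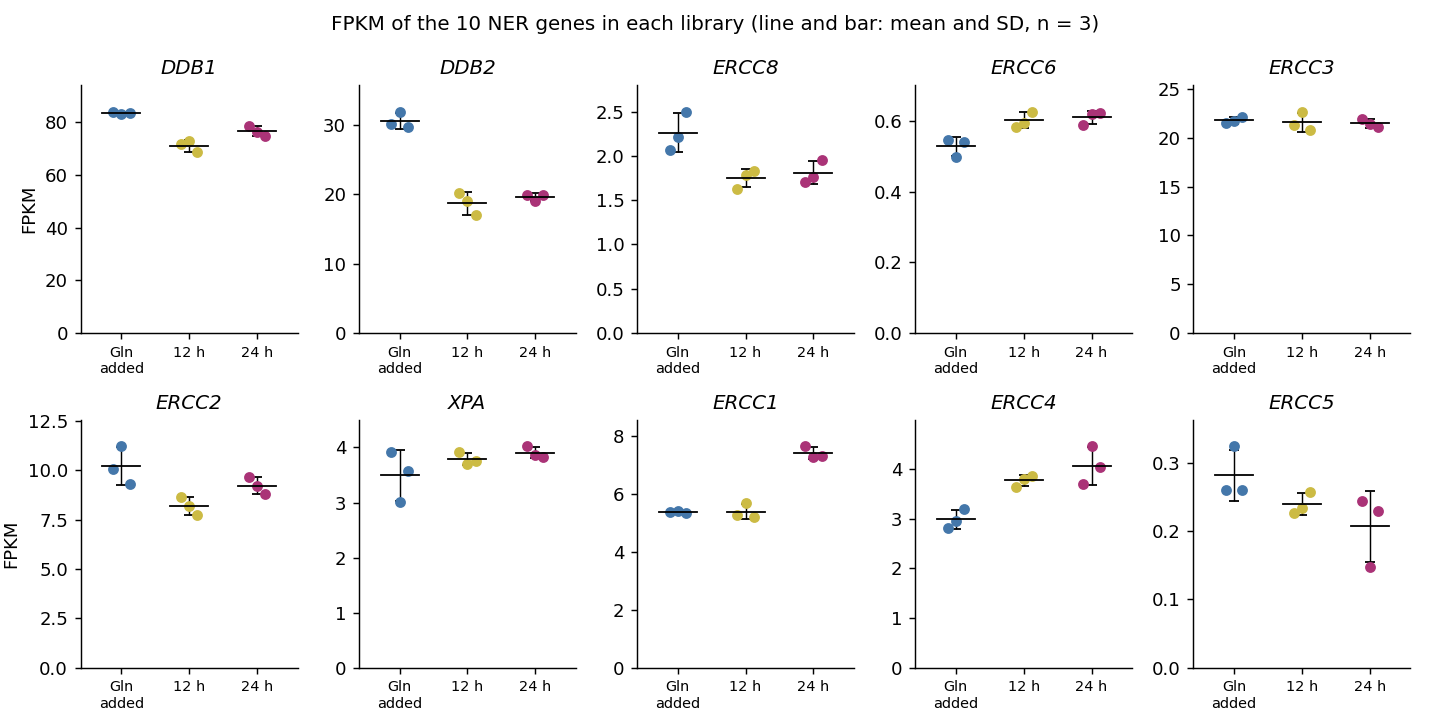
FPKM of each of the 10 NER genes (vertical axes, each starting at 0) in the 3 control libraries, the 3 libraries at 12 h and the 3 at 24 h of Gln deprivation; points are libraries, the line and bar give mean and SD. *DDB2* drops from about 30.6 to 18.7 FPKM by 12 h, *ERCC1* steps up only at 24 h, and *ERCC3* stays at 20.8 to 22.7 FPKM throughout.

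*DDB2* showed the largest change. It measured 30.2, 32.0 and 29.7 FPKM in control replicates 1 to 3, 20.2, 19.0 and 17.0 at 12 h, and 19.9, 19.0 and 20.0 at 24 h. All 6 deprived libraries lay below all 3 controls, with the 12 h and 24 h libraries intermixed. The mean fell by 38.8% at 12 h (log2 difference −0.71 ± 0.0608 SE, limma adjusted p = 3.309e-06) and stood 35.9% under controls at 24 h (−0.64, adjusted p = 5.2958e-06). At 12 h it was the only NER gene whose log2 difference exceeded, in size, the median of 0.39 among all genes called. At 24 h that median was 0.41, and *ERCC1* (0.45) and *ERCC4* (0.43) exceeded it as well. Between the deprived times *DDB2* differed by 0.07 (95% interval −0.06 to 0.21, adjusted p = 0.45).

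*DDB1*, the large adaptor subunit that carries DDB2 on the CUL4 ligase, measured 84.0, 83.0 and 83.4 FPKM in controls, 71.7, 72.9 and 68.5 at 12 h, and 78.3, 76.4 and 74.7 at 24 h. The 3 groups did not overlap, and the 24 h libraries lay between the other groups. The fall was 14.9% at 12 h (log2 −0.23, limma adjusted p = 0.000187) and 8.37% at 24 h (−0.13, adjusted p = 0.00809), and the difference between 24 h and 12 h just missed the threshold (0.11, adjusted p = 0.0536). When FPKM were rescaled to the same total in each library, the 24 h difference was −0.08 with adjusted p = 0.0575, while the difference between 24 h and 12 h passed (adjusted p = 0.0279).

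The ratio of *DDB2* to *DDB1* FPKM was lower in deprived cells. It was 0.356 to 0.385 in controls, 0.248 to 0.282 at 12 h and 0.249 to 0.267 at 24 h. The deprived libraries again lay apart from the controls and among each other. Expression most like that of *DDB2* over the 9 libraries, among the 7295 genes averaging 5 FPKM or more, was that of *SLC37A4* (Pearson r = 0.998), the endoplasmic reticulum glucose 6-phosphate transporter. *HSD3B7*, a bile acid synthesis enzyme (r = 0.995), *FPGS*, folylpolyglutamate synthase (r = 0.992), *ENO1*, a glycolytic enolase (r = 0.991), and *ARF1*, a Golgi GTPase (r = 0.99), came next. All 5 had lower means in both deprived groups than in controls, and each correlation includes that step between groups. *SLC37A4*, for example, had means of 18.9, 11.8 and 12.5 FPKM in the 3 groups.

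In the transcription-coupled pair, *ERCC8* was called and *ERCC6* was not. *ERCC8* measured 2.07, 2.21 and 2.50 FPKM in controls, 1.63, 1.78 and 1.82 at 12 h, and 1.71, 1.76 and 1.95 at 24 h. No deprived library reached the lowest control. The fall was 22.8% at 12 h (log2 −0.35 ± 0.0938 SE, limma adjusted p = 0.00758) and 20.0% at 24 h (−0.30, adjusted p = 0.0148). The 24 h call rested on control replicate 3, the highest library, without which the difference was −0.23 with adjusted p = 0.0684.

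*ERCC6*, the SWI/SNF-type ATPase at the stalled polymerase, measured 0.546, 0.497 and 0.542 FPKM in controls, 0.584, 0.596 and 0.627 at 12 h, and 0.588, 0.620 and 0.624 at 24 h. All 6 deprived libraries were above all 3 controls, yet the differences of 0.16 (95% interval −0.14 to 0.46) and 0.18 (−0.12 to 0.48) did not pass (limma adjusted p = 0.32 and 0.268). In this fit the spread of a gene is drawn toward that of genes of similar FPKM. Other settings did call it: limma without that trend gave adjusted p = 0.0174 at 12 h and 0.0102 at 24 h, and voom on the recovered fragments gave 0.0275 and 0.0161 with log2 differences of 0.19 and 0.21. The ratio of *ERCC8* to *ERCC6* went from 3.78 to 4.61 in controls to 2.79 to 2.98 at 12 h and 2.84 to 3.13 at 24 h, with no overlap between control and deprived libraries.

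Of the TFIIH helicase genes, *ERCC3* did not pass in any of the 3 comparisons. It measured 21.5, 21.7 and 22.1 FPKM in controls, 21.3, 22.7 and 20.8 at 12 h, and 21.9, 21.4 and 21.1 at 24 h. The groups overlapped throughout. Its log2 difference was −0.01 at 12 h (95% interval −0.11 to 0.08) and −0.02 at 24 h (−0.11 to 0.07), with limma adjusted p = 0.788 and 0.696.

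*ERCC2* measured 10.1, 11.2 and 9.33 FPKM in controls, 8.63, 8.18 and 7.72 at 12 h, and 9.66, 9.22 and 8.78 at 24 h. The 12 h libraries lay below both other groups, while the 24 h libraries overlapped the controls. *ERCC2* fell by 19.9% at 12 h (log2 −0.31 ± 0.071 SE, limma adjusted p = 0.00294), and its 24 h difference of −0.14 (95% interval −0.30 to 0.01) did not pass (adjusted p = 0.0996). Without control replicate 3 the 24 h difference was −0.21 and passed (adjusted p = 0.0307), and without control replicate 2, the highest library, it was −0.07 (adjusted p = 0.369). The step from 12 h to 24 h was 0.17 (adjusted p = 0.117). The ratio of *ERCC2* to *ERCC3* was 0.422 to 0.516 in controls, 0.361 to 0.406 at 12 h and 0.417 to 0.440 at 24 h, lowest at 12 h in every library.

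*XPA*, the scaffold protein of the pre-incision complex, measured 3.91, 3.00 and 3.57 FPKM in controls, 3.91, 3.70 and 3.76 at 12 h, and 4.02, 3.86 and 3.83 at 24 h. Control replicate 1 lay within the deprived range, and the controls spread more than either deprived group. The differences of 0.12 (95% interval −0.07 to 0.31) and 0.16 (−0.03 to 0.35) did not pass (limma adjusted p = 0.245 and 0.119). Without control replicate 1 the 24 h difference was 0.25 and passed (adjusted p = 0.0262), and without control replicate 2, the lowest library, it was 0.06 (adjusted p = 0.466). The 12 h difference without control replicate 2 was 0.02.

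The genes called higher than controls were *ERCC4* and, at 24 h, *ERCC1*. *ERCC4*, the catalytic subunit of the 5′ nuclease, measured 2.82, 2.95 and 3.20 FPKM in controls, 3.65, 3.80 and 3.87 at 12 h, and 3.69, 4.46 and 4.05 at 24 h. Every deprived library exceeded every control, and the deprived times overlapped. *ERCC4* rose by 26.1% at 12 h (log2 0.33 ± 0.0781 SE, limma adjusted p = 0.0041) and was 35.9% above controls at 24 h (0.43, adjusted p = 0.00064). Between 12 h and 24 h it differed by 0.10 (95% interval −0.07 to 0.27, adjusted p = 0.401).

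*ERCC1*, the noncatalytic partner that ERCC4 needs for stability and DNA binding, moved later. It measured 5.38, 5.42 and 5.34 FPKM in controls, 5.27, 5.68 and 5.19 at 12 h, and 7.64, 7.27 and 7.30 at 24 h. Controls and 12 h libraries were intermixed, and all 3 libraries at 24 h stood above both. The 12 h difference was 0.00 (95% interval −0.11 to 0.11, limma adjusted p = 0.997), followed by a rise of 37.6% over controls at 24 h (log2 0.45 ± 0.0506 SE, adjusted p = 1.79e-05). The direct test of 24 h against 12 h gave 0.45 (95% interval 0.34 to 0.57, adjusted p = 0.000179). Over the alternative settings this step was 0.40 to 0.49, with adjusted p between 3.73e-05 and 0.00187.

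The ratio of *ERCC1* to *ERCC4* followed from these timings. It was 1.67 to 1.91 in controls, 1.34 to 1.49 at 12 h and 1.63 to 2.07 at 24 h. The 12 h libraries lay below all others, and the 24 h libraries overlapped the controls.

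**Figure D2:**
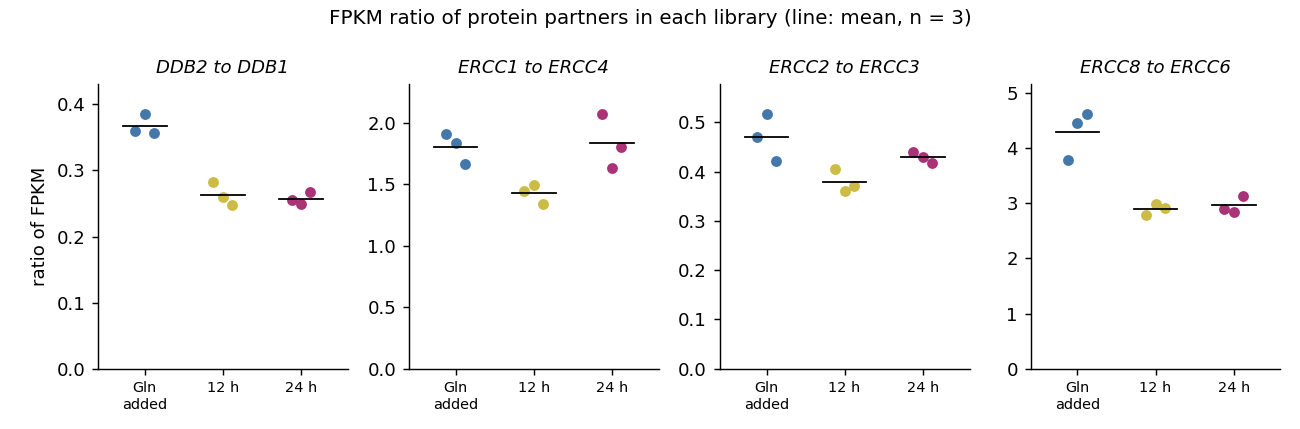
FPKM ratio of 4 partner pairs (vertical axes, each starting at 0) in every library of the 3 groups, with the mean as a line. *DDB2* to *DDB1* and *ERCC8* to *ERCC6* step down by 12 h and stay there at 24 h, whereas *ERCC1* to *ERCC4* and *ERCC2* to *ERCC3* are lowest at 12 h.

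*ERCC5*, the 3′ nuclease, measured 0.259, 0.324 and 0.260 FPKM in controls, 0.226, 0.234 and 0.257 at 12 h, and 0.244, 0.147 and 0.229 at 24 h. The deprived libraries were all below the controls, by little, since 12 h replicate 3 came close to the lowest control. The values rest on 116, 95 and 84 fragments per group, or 0.281 (95% Poisson interval 0.232 to 0.337), 0.240 (0.194 to 0.293) and 0.208 FPKM (0.166 to 0.257), intervals that cover counting error only. With no filter on low values limma gave log2 differences of −0.17 at 12 h and −0.32 at 24 h (adjusted p = 0.53 and 0.181). A change was not detectable with so few fragments. In the GENCODE v44 annotation 91.7% of the canonical *ERCC5* transcript is also exon of the readthrough gene *BIVM-ERCC5* on the same strand, which was not analysed here, so how reads were divided between them bears on this level and was not tested.

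**Figure D3:**
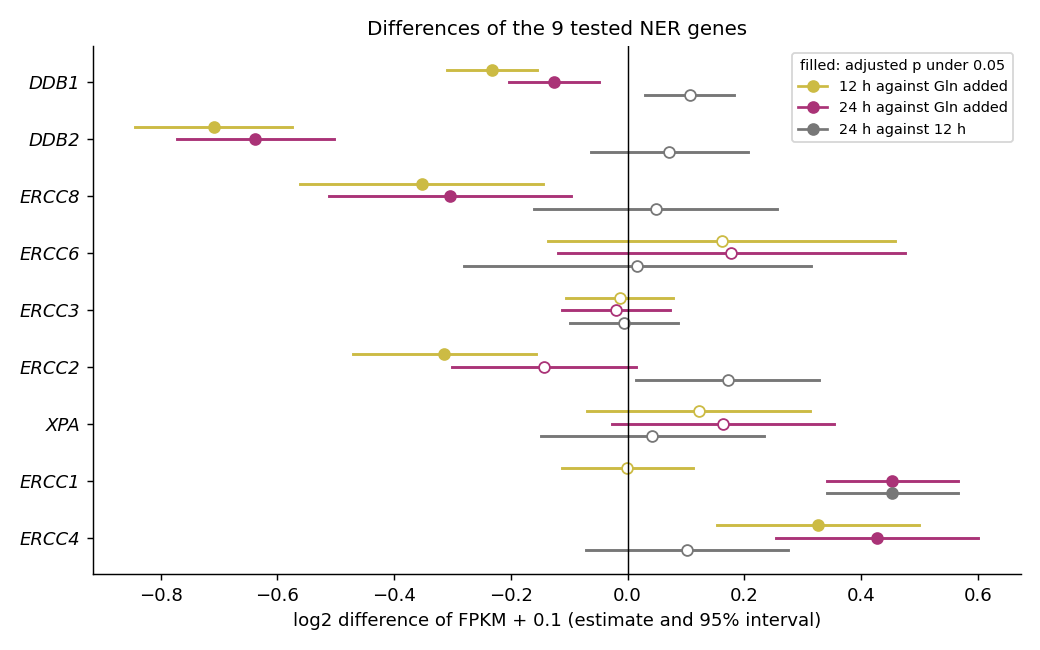
Log2 difference of FPKM + 0.1 (horizontal axis) with its 95% interval for the 9 tested NER genes in the 3 comparisons; filled points have an adjusted p under 0.05. *DDB2* lies furthest to the left at both times, at −0.71 and −0.64, and *ERCC1* is the only gene with a filled point for 24 h against 12 h.

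Several of these genes overlap a neighbour. In the GENCODE v44 annotation of GRCh38, *ERCC1* (chr19:45407334-45478828, minus strand) shares 28.6% of its exonic bases, and 47.1% of its canonical transcript, with *POLR1G*, an RNA polymerase I subunit gene on the opposite strand. Within the shared bases, reads of the 2 genes are told apart by strand, and whether counting used it the sources do not settle. *POLR1G* itself measured 7.06 to 7.89 FPKM in controls, 6.10 to 7.18 at 12 h and 5.32 to 5.52 at 24 h. It was lower than controls at 12 h (log2 −0.18, limma adjusted p = 0.0335), when *ERCC1* did not pass, and at 24 h (−0.46, adjusted p = 0.000113), when *ERCC1* was higher.

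*ERCC4* (chr16:13920138-13952348, plus strand) shares 14.1% of its exonic bases with an opposite-strand long noncoding RNA gene. *ERCC2* (chr19:45349837-45370918, minus strand) shares 7.71% with *KLC3*, a kinesin light chain gene at 0.466 to 1.06 FPKM in all libraries. *DDB1* (chr11:61299451-61342596, minus strand) shares 3.18% with *TKFC*, a triose kinase gene that also fell (log2 −0.29 at 12 h and −0.31 at 24 h). Both overlaps are with the opposite strand, and that of *ERCC2* covers 13.0% of its canonical transcript. *DDB2* (chr11:47214465-47239217, plus strand), *ERCC3* (chr2:127257290-127294166, minus strand) and *XPA* (chr9:97674909-97697340, minus strand) share no exonic base with another gene in this annotation. The length solved for *XPA*, 2813 bases, exceeds its 1816 exonic bases there, so part of the counted gene was not checked for overlap. *ERCC8* (chr5:60866454-60945073, minus strand) shares 6.21% with a processed pseudogene on its own strand, although none of that lies in its canonical transcript. It also shares 0.65% with *ERCC8-AS1*, an opposite-strand long noncoding RNA gene. *ERCC6* (chr10:49454168-49539538, minus strand) shares 0.87% with an opposite-strand long noncoding RNA gene. Its solved length of 30621 bases likewise exceeds its 23104 exonic bases in this annotation. *ERCC5* lies at chr13:102845831-102875995 on the plus strand.

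The study asked about G-quadruplexes, 4-stranded structures of stacked guanines, at repair gene promoters, so the 250 bases before each start were read from RefSeq (GRCh38.p14), 14 windows for the 10 genes. The paper ranked experimentally identified sites with a search that allows shorter G runs and longer spacings than the patterns used here. Lack of a match below thus does not show that motifs of the paper's kind are absent. None of the 14 windows held 4 runs of GGG spaced by 1 to 7 bases on either strand, a pattern present in 23.3% of 34941 RefSeq promoters. With spacings of up to 12 bases, 1 window each of 3 genes (*DDB2*, *XPA* and *ERCC1*) held it, out of the 14 windows, beside 35.3% of all promoters. For *ERCC1* this was chr19:45451548-45451797, 1 of its 3 windows. These 3 genes respectively fell, did not pass and rose at 24 h. The first 2 are shown because they carry the densest matches outside exons, with the letters within a match in capitals (runs of C mark the opposite strand). The *DDB2* window shown, 1 of its 2, is chr11:47214724-47214973 (plus strand) and lies within the annotated gene. Its other window, chr11:47214204-47214453, before the annotated gene start, held no match of either pattern. The window of *XPA* is chr9:97697341-97697590 (minus strand).
DDB2: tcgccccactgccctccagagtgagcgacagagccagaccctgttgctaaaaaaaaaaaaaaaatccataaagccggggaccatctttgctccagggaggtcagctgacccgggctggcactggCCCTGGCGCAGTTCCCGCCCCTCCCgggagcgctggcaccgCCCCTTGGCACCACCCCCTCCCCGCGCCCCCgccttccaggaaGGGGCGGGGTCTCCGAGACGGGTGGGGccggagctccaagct
XPA: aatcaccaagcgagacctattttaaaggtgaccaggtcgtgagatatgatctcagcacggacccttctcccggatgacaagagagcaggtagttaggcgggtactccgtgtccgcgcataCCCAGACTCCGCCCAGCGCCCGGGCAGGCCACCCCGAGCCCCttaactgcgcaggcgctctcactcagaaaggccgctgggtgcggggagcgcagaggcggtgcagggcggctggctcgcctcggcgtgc
A match of letters is no evidence of a folded structure, and the matches in one window overlap each other.

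Other short motifs were searched in the same windows. TGACTCA (AP-1), TGACGTCA (CRE), TGATGNAAN (CARE) and TTTCCCGC or TTTGGCGC (E2F), on both strands, were in none of the 14 windows, beside 4.22%, 1.63%, 3.14% and 1.92% of all promoters, which says only that these letters are not in these windows. GGGCGG (Sp1), which can lie within a G-quadruplex match, was in 7 of the 14 windows and in 42.5% of all promoters. The GC content of the 14 windows ran from 50.4% to 75.2%, around the median of 58.0% over all promoters.

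The window of *ERCC4*, the NER gene that rose at both times, stands out by a repeat that was noticed after its letters were seen. It holds 12 copies of CGGCT, counted on both strands, where the median promoter has 0 and no other of the 34941 windows has as many. The 234 bases before the annotated *ERCC4* start, chr16:13919904-13920137 on the plus strand, are given with each CGGCT in capitals. They hold 11 of the 12 copies, as the remaining copy lies past that start, in *ERCC4* exon.
ERCC4: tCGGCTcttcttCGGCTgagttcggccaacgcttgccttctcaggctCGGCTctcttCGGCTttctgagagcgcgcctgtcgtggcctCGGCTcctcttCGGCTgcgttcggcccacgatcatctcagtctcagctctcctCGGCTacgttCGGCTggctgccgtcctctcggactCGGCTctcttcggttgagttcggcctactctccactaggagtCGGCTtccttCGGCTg
No readout here bears on this repeat.

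The partners of these genes were taken as 5 lists, each described by its counts beside the shares of 60.2% and 64.7% called over all genes. In the list of damage recognition and CUL4 ligase partners, 3 of 11 tested genes rose, 5 fell and 3 did not pass at 12 h, with 4, 5 and 2 at 24 h. *CETN2*, the small calcium-binding subunit of the global genome damage sensor, went from 29.4 ± 2.38 FPKM (SD, n = 3) to 14.4 ± 0.606 at 12 h and 12.3 ± 0.62 at 24 h, a log2 difference of −1.02 and then −1.25. *RBX1*, the RING subunit of the same ligases that hold DDB1, fell (log2 −0.68 and −0.69), while *CUL4A*, a scaffold of theirs, rose (0.35 and 0.41). *CUL4B*, the other CUL4 gene of the list, did not pass at 12 h (−0.10, limma adjusted p = 0.28) or 24 h (0.12, adjusted p = 0.205). *DDB1*, *DDB2* and *RBX1* thus fell beside a rise of *CUL4A* but not of *CUL4B*. On the transcription-coupled side, *UVSSA*, which brings TFIIH to the stalled polymerase, rose from 0.604 FPKM to 0.801 and 1.07 (0.35 and 0.73), and *ELOF1*, an elongation factor of the same step, fell (−0.25 and −0.44). The 12 h call of *UVSSA* did not pass in 5 of 18 other settings.

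Among the 8 TFIIH subunit genes other than *ERCC2* and *ERCC3*, 4 rose, 2 fell and 2 did not pass at 12 h, and the counts were also 4, 2 and 2 at 24 h though not for the same genes throughout, with a median log2 difference of 0.23 at 12 h and 0.16 at 24 h. *CDK7*, the kinase of TFIIH, had the largest increase, going from 19.5 FPKM to 33.0 and 27.7 (0.76 and 0.50). Its cyclin *CCNH* rose by 0.27 at 12 h, a call lost in 5 of 19 other settings, and its 24 h difference of 0.14 did not pass (adjusted p = 0.173). The assembly factor *MNAT1* was 0.24 higher at 12 h, a call lost in 3 of 19 other settings, and 0.34 higher at 24 h. In the core, *GTF2H1* rose by 0.35 and 0.21, whereas *GTF2H5*, the small subunit that stabilises TFIIH, fell (−0.61 and −0.46), as did *GTF2H3* (−0.26 and −0.39). *ERCC3*, a core subunit as well, did not pass at either time.

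The list of repair synthesis genes, which fill the gap and are shared with replication, was lower almost throughout, with 16 of 18 genes down, 1 up and 1 not past the test at both times. Its median log2 difference was −0.50 at 12 h and −0.67 at 24 h. *LIG1*, DNA ligase I, had log2 differences of −1.02 and −1.39. Those of *POLE2*, a DNA polymerase epsilon subunit, were −1.07 and −1.36, and those of *RPA3*, of the single-strand binding complex, −1.004 and −1.19. *PCNA*, the sliding clamp, went from 315 ± 2.67 FPKM (SD, n = 3) to 162 ± 2.72 and 160 ± 0.807, and *RFC5*, of its loader, had a log2 difference of −1.17 at 24 h. The 1 gene that rose was *POLD4*, a polymerase delta subunit, by 0.55 and 0.92. These genes and the NER genes were not tested against each other as lists.

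The COP9 signalosome removes NEDD8 from cullins and so restrains the ligases that hold DDB1. Of its 9 genes, 1 rose, 6 fell and 2 did not pass at 12 h, and 0 rose, 7 fell and 2 did not pass at 24 h. *COPS6* fell (log2 −0.46 and −0.39), as did *COPS7A* (−0.40 and −0.31), *COPS2* (−0.34 and −0.25) and *COPS7B* (−0.25 and −0.29). *COPS5*, the catalytic subunit, was the gene that rose at 12 h, by 0.32, and its 24 h difference of 0.14 did not pass (adjusted p = 0.0738).

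Since *DDB2* is a p53 target, 21 other p53 targets were listed beside it. At 12 h 5 rose, 13 fell and 3 did not pass (median log2 difference −0.35), and at 24 h 8 rose, 12 fell and 1 did not pass (−0.25). *FDXR*, ferredoxin reductase, fell (log2 −0.73 and −0.96), as did *POLH*, the translesion polymerase eta (−0.75 and −0.90), in the direction of *DDB2*. *BBC3*, the proapoptotic PUMA gene, rose by 0.91 and 0.93 and *PLK3*, a stress kinase, by 0.84 and 1.29. The list therefore held changes of both signs as large as that of *DDB2*.

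**Figure D4:**
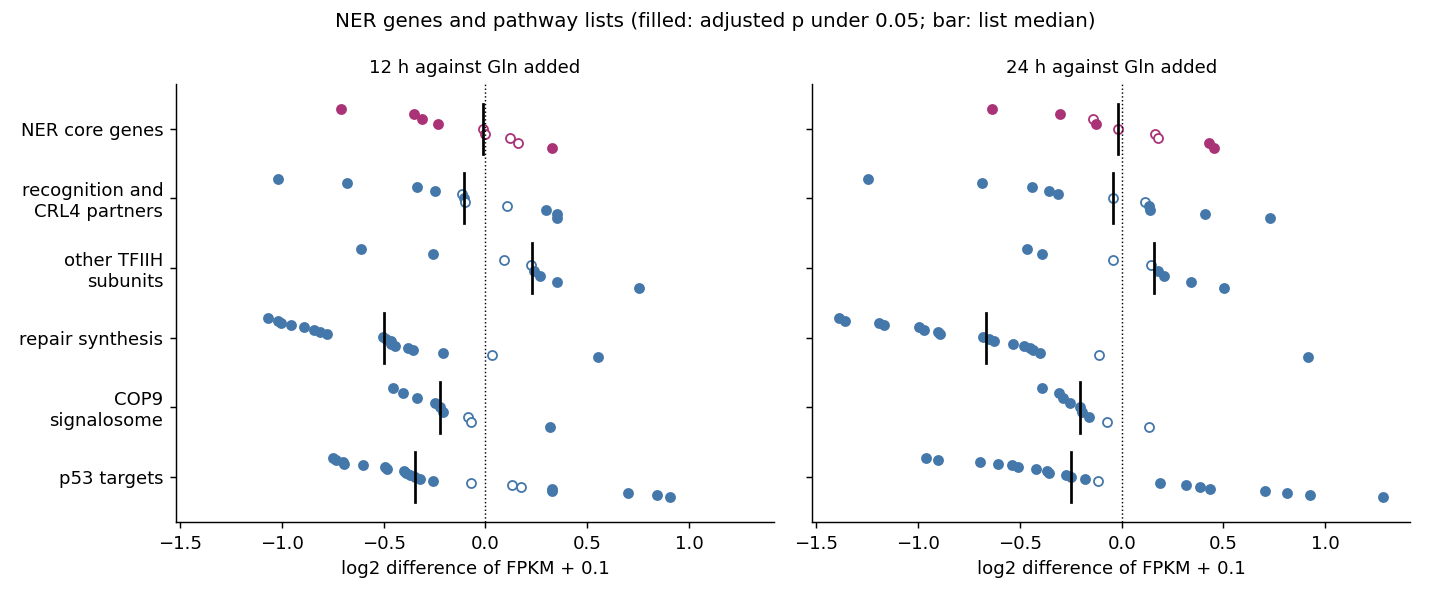
Log2 difference of FPKM + 0.1 (horizontal axes) of every tested gene of the 9 NER genes and the 5 lists at 12 h and at 24 h against controls; filled points have an adjusted p under 0.05 and bars are list medians. The repair synthesis genes lie mostly left of 0, with medians of −0.50 and −0.67, while the NER genes lie on both sides with medians of −0.01 and −0.02.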

How the data were processed

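RNA-seq of 9 HepG2 libraries was deposited as 1 table of FPKM per gene, which the authors made by aligning paired-end reads to GRCh38 with STAR, per the methods; the processing notes also name HTSeq and R 3.2.0, and depth-normalised values per gene length were deposited without counts. The methods name a strand-specific kit and the labels another kit, so the use of strand in counting is not given in the sources used here. Samples were grouped by their labels.

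FPKM were tested as log2(FPKM + 0.1) in limma 3.58.1 (R 4.3.3; lmFit, eBayes with trend), with 3 groups in 1 fit and genes averaging 0.5 FPKM or more, adjusted by Benjamini-Hochberg over all 11880 genes and called under 0.05. A fold change on this scale understates that of low genes. The authors' differential test, DESeq2, needs counts and was replaced. The library totals and gene lengths behind the FPKM steps were solved, which made 100.0% of genes whole to within 0.02 fragments; these fragments gave depth, counting intervals and a voom alternative. Fits and recovery were tested on simulated data. Replicates of each group differed beyond sampling noise. Named were all 10 NER genes, up to 4 called genes with the largest differences per list and time, the 5 genes most correlated with *DDB2*, and genes singled out with their reason. The NER genes and the lists were chosen with earlier results of these data known. Alternatives were other pseudocounts and filters, 2 scalings, a fit of 2 groups, a replicate block, no trend, voom and leaving out each library; for the lists they were chosen after seeing the data. Figures were drawn with matplotlib 3.10.9.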

Additional observations from a re-analysis of the deposited data

Results flagged for a closer look

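*ERCC1* differed between the deprivation times. Against the same 3 controls its log2 difference was 0.00 at 12 h and 0.45 at 24 h, and the direct limma contrast of 24 h against 12 h was 0.4536 (adjusted p = 0.000179), with all 3 libraries at 24 h above all 3 at 12 h. *POLR1G*, which overlaps *ERCC1* on the opposite strand, was lower than controls at both times; its part in the *ERCC1* values was not tested.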

How the results depend on the processing

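Over 19 other settings, the 9 NER genes gave 510 alternative log2 differences in the 3 comparisons, of which 481 kept their direction and their side of the threshold, 2 lost a call (*DDB1* and *ERCC8* at 24 h) and 10 gained one. Settings that alter only the filter, the spread estimate, the block or a group outside the comparison leave the log2 difference itself unchanged. In those settings only the call could change, so their kept direction adds nothing. The other 17 of the 510 were differences near 0 that changed sign, 0 of them called. With rescaled totals these were *ERCC3* (0.0193 at 12 h, 0.0274 at 24 h, 0.00804 for 24 h against 12 h) and *ERCC1* at 12 h (0.0325); with median-ratio scaling *ERCC3* (0.00554) and *ERCC1* (0.0189) at 12 h and *ERCC6* for 24 h against 12 h (−0.0145); and with voom *ERCC1* at 12 h (0.00116). Leaving out 1 library, *ERCC3* ranged from −0.0505 to 0.0129 and *ERCC1* from −0.0385 to 0.0243 at 12 h, and *ERCC8* from −0.00608 to 0.0854, *ERCC6* from −0.00254 to 0.0415 and *ERCC3* from −0.0327 to 0.0307 for 24 h against 12 h. Called NER genes numbered 5 to 6 at 12 h and 4 to 6 at 24 h. At 24 h against 12 h there were 2 instead of 1 with FPKM rescaled to the same total, with voom and with the replicate block, *DDB1* joining *ERCC1* each time; the cause was not tested. Under the replicate block 7341, 7802 and 2586 genes were called in the 3 comparisons, and *ERCC2* at 24 h passed (limma adjusted p = 0.0473). Same-numbered libraries correlated by only −0.136 to 0.283 after removing group means, and not every library correlated best with its own number. No pairing by number was thus seen, though 3 libraries per group cannot exclude one. The share of higher genes among those called at 24 h against 12 h was 47.7%, 54.3% with rescaled totals and 33.4% with median-ratio scaling; the step of *ERCC1* was called under each. Gene promoters with a G-quadruplex pattern numbered 0 with spacings of 1 to 7 bases and 3 with up to 12, by construction of the wider pattern. Leaving out libraries, 6455 to 7434 genes were called at 12 h, 7034 to 7811 at 24 h and 1652 to 2515 at 24 h against 12 h. Of the 5 lists, the TFIIH subunits had 4 to 6 called genes at 12 h and the p53 targets 17 to 20 at 24 h over these settings. *ERCC6* left the test with a filter at a mean of 1 FPKM. *ERCC5* rested on the fewest fragments of the NER genes, and why was not tested.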
